A study of Mus musculus with 5 samples.

Results

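Natural killer (NK)-like cells of the mouse spleen were examined 48 h after intravenous infusion of splenic cells. They were chosen by unique molecular identifier (UMI) counts, each UMI marking 1 captured RNA molecule. A base cell was a barcode with at least 1000 UMIs, at least 500 detected genes and at most 10% mitochondrial UMIs. A base cell was taken as NK-like when it held at least 2 UMIs of Ncr1, Klrb1c, Klre1 and Klra8 together, at most 1 UMI of Cd3d, Cd3e and Cd3g together, at most 1 UMI of Cd79a, Cd79b and Ms4a1 together, and none of Siglech. The rule selected 535 of 16271 base cells.

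NK cells are innate lymphocytes that kill infected, transformed or foreign cells with perforin and granzymes and that release chemokines and interferon gamma. Germline-encoded receptors set their response: inhibitory Ly49 and NKG2A receptors read MHC class I on the target, while activating receptors signal through adaptors such as DAP12 (Tyrobp) and DAP10 (Hcst). NK cells can reject haematopoietic cells that lack the MHC class I of the host, which is why an allogeneic infusion is a setting in which they are commonly studied.

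All recipients were C57/BL6 mice. The live allo library came from recipients of live Balbc splenic cells and the live iso library from recipients of live B6 splenic cells. The apoptotic allo and apoptotic iso libraries came from recipients of apoptotic Balbc or apoptotic B6 splenic cells, and the saline library from mice given saline. Spleens were broken up with DNAse I and collagenase D. CD45+ cells and dendritic cells (DCs) were each enriched on magnets and then mixed in equal parts, so shares of a cell type are set in part by the enrichment. There was 1 library per group, how many mice a library pooled is not stated in the labels, and infused donor cells still present would not be told apart from recipient cells by the rule. No test across samples was possible, and no difference between libraries has a replicate check.

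The live allo library held 32 NK-like cells, the live iso library 132, the apoptotic allo library 79, the apoptotic iso library 152 and the saline library 140. Their summed UMIs were 203847, 588651, 268468, 333718 and 398776 in the same order, and the median UMIs per cell 4767, 3432.5, 3033, 1940.5 and 2268.5. Levels below are CPM, the count of a gene scaled to a fixed total (counts per 1000000 UMIs), of the UMIs summed over the NK-like cells of a library, so 3 UMIs correspond to 14.7 CPM in live allo cells and to 5.10 CPM in live iso cells. Log2 ratios were taken after adding 10 CPM to both sides, which understates the ratio of low genes. A gene was measured with at least 20 UMIs in the 2 sums and called higher or lower past 1.5-fold on that scale. Fold values without the added 10 CPM are given with an exact conditional Poisson 95% interval, shares of cells with a Clopper-Pearson 95% interval, and both cover counting error only. The fold intervals count summed UMIs and do not hold the spread between cells, which matters where few barcodes carry most UMIs of a gene.

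Of the 535 barcodes, 17 also carried many UMIs of 58 marker genes of 6 other cell types, such as B cells, DCs and erythroid cells (at least 1% of their UMIs or at least 100 UMIs), and they are called mixed-marker barcodes, a definition chosen after seeing the data. They numbered 1 in live allo, 8 in live iso, 1 in apoptotic allo, 3 in apoptotic iso and 4 in saline, and held 7.22%, 25.5%, 1.71%, 4.97% and 10.9% of the NK-like UMIs there. The 2 largest, with 67158 and 41822 UMIs, were live iso barcodes with the erythroid gene Car1, and together they account for most of the live iso share. Live iso values therefore hold a larger part from mixed-marker barcodes than the other 4 libraries do, and results are given with and without these barcodes where they differ. Over all NK-like barcodes, erythroid and macrophage marker sums were highest in live iso. The B cell and DC marker sums were highest in saline, at 3092 and 1008 CPM, and the monocyte and neutrophil sum in apoptotic iso. Gm42418, a gene model that overlaps ribosomal RNA, also stood out in live iso, with 17518 CPM in live allo, 76509 in live iso, 28756 in apoptotic allo, 17991 in apoptotic iso and 19432 in saline. Over all libraries 66 base cells had a barcode that was also a base cell of another library. Of these cells 1 was NK-like, and no barcode was NK-like in more than 1 library.

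The cells matched their label. The 15 genes most enriched over the other base cells were Gzma, Klra4, Klrb1c, Klra8, Klre1, Ncr1, Prf1, Klrc2, Nkg7, Klra9, Ccl5, Klrk1, Il18rap, Klra7 and Il2rb, which include the 4 genes that selected the cells and are a description, not a result. Gzma, the granzyme A serine protease, had 9106 CPM over all NK-like cells against 12.4 CPM over the other base cells. A Gzma UMI was found in 90.6% of NK-like cells of live allo, 87.1% of live iso, 91.1% of apoptotic allo, 86.2% of apoptotic iso and 90.0% of saline. In B-like cells, which should lack it, the share was 0.367%, 1.00%, 0.617%, 0.444% and 0.348% at median UMIs of 4049, 3207, 3173, 1829 and 2470, which is the background that free RNA can give. Of the 535 barcodes 13 held no UMI of Gzma, Prf1 or Nkg7. At the threshold, 27 selected cells had exactly 2 rule UMIs and 19 of these held a UMI of Nkg7 or Gzma. Of 73 base cells with 1 rule UMI that met the other criteria, 15 did. Base cells with at least 2 rule UMIs numbered 669, of which 114 exceeded the limit for CD3 UMIs, 20 that for B cell UMIs and 9 held Siglech, with some counted more than once.

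NK-like cells were the smallest share of base cells in the apoptotic iso and live allo libraries and the largest in saline. They made up 2.70% of base cells in live allo (interval 1.85 to 3.79), 3.58% in live iso (3.01 to 4.23), 3.73% in apoptotic allo (2.96 to 4.63), 2.38% in apoptotic iso (2.02 to 2.79) and 4.82% in saline (4.07 to 5.67). Among T-like, B-like and NK-like cells together the shares were 4.46%, 5.96%, 7.12%, 3.04% and 8.81%. T-like cells were base cells with at least 2 UMIs of Cd3d, Cd3e and Cd3g and B-like cells those with at least 2 UMIs of Cd79a, Cd79b and Ms4a1, each without the markers of the other classes. With every cell thinned to 1000 UMIs before the rule was applied, a choice made after seeing the data, the shares of base cells were 2.28%, 3.04%, 3.16%, 2.04% and 3.82%, in the same order of libraries from low to high. The interval of apoptotic iso overlapped that of live allo and no other, the intervals of live allo, live iso and apoptotic allo all overlapped each other, and that of saline overlapped those of live iso and apoptotic allo. Whether a lower share means fewer NK cells or more of the other enriched cells cannot be told apart in these data.

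**Figure D1:**
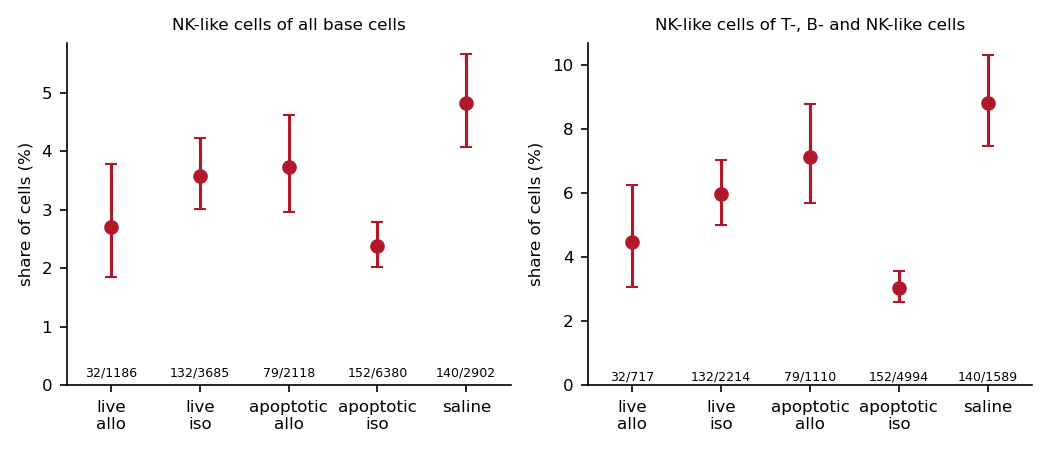
NK-like cells as a share (%) of all base cells (left) and of T-, B- and NK-like cells together (right) in the 5 libraries; points are shares, bars Clopper-Pearson 95% intervals for counting error only, and the numbers at the foot are the cells counted. The saline share is the highest in both panels and the apoptotic iso share the lowest.

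The summed level of cell cycle genes was highest in live allo NK-like cells, with 13103 CPM in live allo, 6410 in live iso, 3390 in apoptotic allo, 4240 in apoptotic iso and 5053 in saline. Without mixed-marker barcodes the sums were 11066, 3919, 3399, 3705 and 4827 CPM. Of 40 listed genes of replication and mitosis, 39 were measured between live allo and live iso NK-like cells, 30 were called higher in live allo and 1 lower, with a median log2 ratio of 1.03. Over all 5452 genes measured there 524 (9.61%) were called higher and 1054 (19.3%) lower, with a median of -0.10. Against saline, 33 of 35 measured cell cycle genes were called higher in live allo and none lower, with a median of 1.61; of 4493 genes measured 9.48% were higher and 18% lower. Without the mixed-marker barcodes the live allo over live iso count was 30 of 31 higher and the median 1.66, beside 11.5% higher and 18.6% lower over all genes, and the live allo over saline count 25 of 29 with a median of 1.31, beside 9.18% and 19.5%.

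Mki67, which marks dividing cells, had 594 CPM in live allo, 221 in live iso, 59.9 in apoptotic iso and 145 in saline NK-like cells, and no UMI in apoptotic allo, where 3 UMIs would be 11.2 CPM. Top2a, the topoisomerase of chromosome segregation, had 545 CPM in live allo, 214 in live iso, 18.6 in apoptotic allo, 36.0 in apoptotic iso and 95.3 in saline. Both genes were highest in live allo. Without mixed-marker barcodes Mki67 had 539 CPM in live allo, 70.7 in live iso, 0 in apoptotic allo, 15.8 in apoptotic iso and 144 in saline, and Top2a 434, 68.4, 18.9, 15.8 and 73.2 CPM. The live allo over live iso fold of Mki67 was 2.69 (2.08 to 3.47) with all barcodes and 7.63 (5.06 to 11.8) without the mixed-marker ones. Pclaf, a partner of the replication clamp PCNA, had 353, 62.9, 7.45, 47.9 and 50.2 CPM in live allo, live iso, apoptotic allo, apoptotic iso and saline, a live allo over live iso fold of 5.62 (3.73 to 8.59), or 10.4 (4.77 to 26.0) without mixed-marker barcodes. Pcna itself had 285, 141, 63.3, 83.9 and 85.3 CPM, a fold of 2.02 (1.42 to 2.86). Stmn1, which destabilises microtubules, had 1089, 324, 81.9, 186 and 271 CPM, a fold of 3.36 (2.75 to 4.09), or 6.70 (4.90 to 9.28) without mixed-marker barcodes. Hmgn2, a nucleosome-binding protein, had 388, 112, 81.9, 65.9 and 72.7 CPM, a fold of 3.46 (2.46 to 4.87). A Hmgn2 UMI was seen in 65.6% of live allo and 18.2% of live iso NK-like cells, and after thinning every cell to 1000 UMIs in 12.5% of live allo and 8.33% of live iso cells.

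Counted per cell after thinning, at least 2 cell cycle UMIs were found in 87.5% of live allo NK-like cells (71.0 to 96.5) and 88.6% of saline (82.1 to 93.3). The shares were 78.0% in live iso, 77.2% in apoptotic allo and 77.6% in apoptotic iso. Most cells of every library passed this limit, so it cannot tell dividing cells from others or rank the libraries by them. In 5 of 32 live allo NK-like barcodes cell cycle genes took at least 1% of UMIs, a share of 15.6% (5.28 to 32.8), and these 5 held 79.0% of all cell cycle UMIs of live allo NK-like cells. The count was 4 of 132 in live iso, 0 of 79 in apoptotic allo, 3 of 152 in apoptotic iso and 3 of 140 in saline. Without mixed-marker barcodes it was 4 of 31 in live allo (12.9%, 3.63 to 29.8), 1 of 124 in live iso, 0 of 78 in apoptotic allo, 2 of 149 in apoptotic iso and 2 of 136 in saline. The limit of 1%, chosen after seeing the data, fell in a gap: the live allo barcodes above it began at 1.70% and those below ended at 0.694%, and no barcode of the other 4 libraries lay between 0.908% and 1.17%. Cycling barcodes were large, with a median of 14711 UMIs in live allo, against 4529 UMIs in the other live allo barcodes. The 5 in live allo held 15802, 14763, 14711, 12453 and 9430 of the 203847 UMIs summed there. Live allo levels of all genes, also those outside the cell cycle list, thus rest in part on these 5 barcodes. With mixed-marker and cycling barcodes both left out, 7 of 18 measured cell cycle genes were higher and 2 lower in live allo over live iso, with a median of 0.40, beside 9.35% higher and 20% lower over all 4201 genes.

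**Figure D2:**
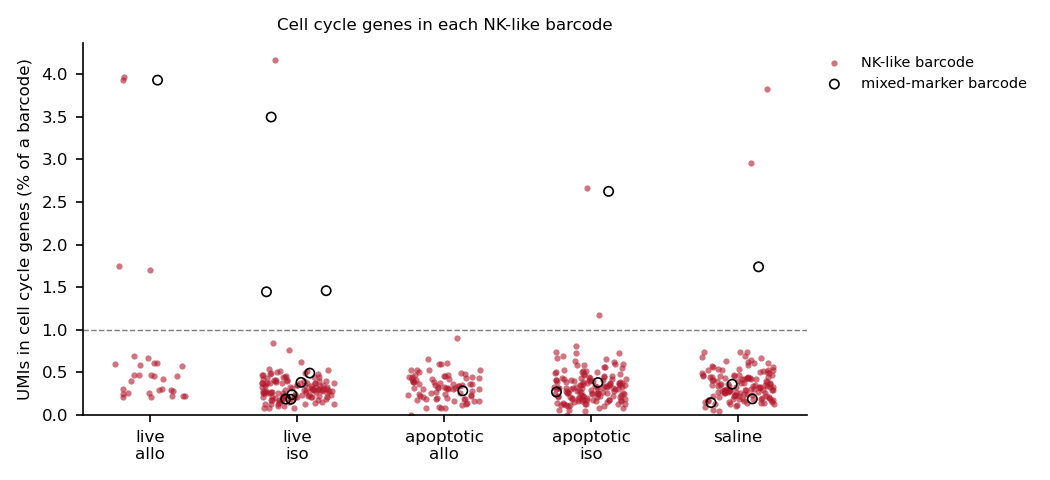
Share of each NK-like barcode's UMIs (%) that fell in 40 cell cycle genes, by library; filled points are NK-like barcodes, open circles mixed-marker barcodes, the dashed line 1%, and sideways spread is only for display. Of the live allo barcodes 5 of 32 lie above the line, against 4 of 132 live iso and none of 79 apoptotic allo barcodes.

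The live allo T-like cells had the same shift, and the B-like cells did not. Cell cycle genes were higher in 36 of 40 measured in T-like cells (median 1.17) between live allo and live iso, where 7.7% of 9015 genes were called higher and 10.4% lower. In B-like cells 0 of 40 were higher and 11 lower (median -0.43), where 1.58% of 10984 genes were called higher and 4.91% lower. Barcodes with at least 1% cell cycle UMIs made up 12.1% of T-like cells in live allo, 2.49% in live iso, 1.36% in apoptotic allo, 0.729% in apoptotic iso and 0.664% in saline. The B-like shares were 2.57%, 3.75%, 2.10%, 1.39% and 2.09%. The difference between classes was not tested.

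The 9 cycling barcodes without markers of other types carried 88601 UMIs, against 1475259 in the 509 other clean NK-like barcodes. Gzma stood at 9548 CPM in the cycling and 10280 CPM in the other barcodes, a fold of 0.929 (0.866 to 0.995), and Gzmb at 293 and 270 CPM. Ccl5, a chemokine of mature NK cells, was far lower, at 4029 against 14804 CPM (0.272, 0.244 to 0.302). Lower by 1.5-fold or more were also Prf1, perforin (282 against 862 CPM), Zeb2, a factor of terminal NK maturation (282 against 769 CPM), Xcl1 (79.0 against 327 CPM), Itgam, a marker of mature NK cells (79.0 against 207 CPM), and Ctla2a, a gene of immature NK cells (237 against 633 CPM). Cd27 and Kit, found on immature NK cells, rested on 5 UMIs and 1 UMI in the cycling barcodes, and Klrg1, found on mature ones, had 67.7 CPM in the cycling and 72.5 CPM in the other barcodes. Tbx21, a factor of NK maturation, was lower too, from 8 UMIs in the cycling barcodes (0.531, 0.227 to 1.06). Of the immature genes named here only Ctla2a rested on more than 5 UMIs, and Gzma and Klrg1 differed little. The genes thus gave no uniform shift of stage. The 4 rule genes are left out because they chose the barcodes. Since 4 of the 9 cycling barcodes are live allo barcodes, library and cycling cannot be told apart in these sums.

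Promoters of 2 of these genes, Pclaf and Hmgn2, are shown because the genes were among the 10 with the highest ratio between live allo and live iso and hold the CCAAT box (letters CCAAT, searched on both strands, so also read as ATTGG), the site of the factor NF-Y at many cell cycle promoters. The stretches run from 250 bases before to 50 after the gene start in RefSeq, build GRCm38.p6, with CCAAT boxes in capitals. They lie at chr9:65890073-65890372, plus strand and at chr4:133967942-133968241, minus strand. CCAAT was present in 25 of 33 cell cycle promoters that matched (75.8%) and in 10248 of 27025 promoters in all (37.9%). A match is a description of the letters and not of a bound site.
Pclaf: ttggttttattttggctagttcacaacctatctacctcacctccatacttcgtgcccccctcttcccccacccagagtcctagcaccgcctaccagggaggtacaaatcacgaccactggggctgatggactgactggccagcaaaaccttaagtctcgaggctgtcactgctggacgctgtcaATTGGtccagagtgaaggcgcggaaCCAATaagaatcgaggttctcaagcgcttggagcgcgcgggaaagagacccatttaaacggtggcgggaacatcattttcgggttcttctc
Hmgn2: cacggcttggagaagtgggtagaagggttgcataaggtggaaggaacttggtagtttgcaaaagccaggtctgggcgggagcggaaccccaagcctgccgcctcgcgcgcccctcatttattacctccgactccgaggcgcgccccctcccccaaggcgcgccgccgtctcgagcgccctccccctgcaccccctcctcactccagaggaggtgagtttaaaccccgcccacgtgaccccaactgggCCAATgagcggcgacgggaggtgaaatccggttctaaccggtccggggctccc

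Type I interferon genes did not separate live allo from live iso NK-like cells as they did T- and B-like cells. Type I interferon induces a broad antiviral programme in almost every cell. Of 52 listed genes with a row of counts, NK-like cells had 26 measured, of which 6 were called higher in live allo and 4 lower, with a median log2 ratio of -0.10, the same as over all measured genes. In T-like cells 31 of 48 were higher and none lower (median 0.70), and in B-like cells 38 of 51 and none (median 0.83). Over all measured genes 9.61% were called higher and 19.3% lower in NK-like cells. The T-like shares were 7.7% and 10.4%, and the B-like shares 1.58% and 4.91%. NK-like sums were shallower, so only 23 genes were measured in all 3 classes. Over these 23 genes NK-like cells had 6 higher, 2 lower and a median of 0.00, T-like cells 14 higher, none lower and 0.68, and B-like cells 17 higher, none lower and 0.75. Without mixed-marker barcodes the NK-like values were 4 higher, 5 lower and -0.24. Of 4392 genes measured in all classes, 389 were higher and 743 lower in NK-like cells, or 507 and 811 without mixed-marker barcodes. In T-like cells 363 of these genes were higher and 467 lower, and in B-like cells 73 and 222. Of the interferon gamma list 4 of 13 measured genes were higher and 1 lower in NK-like cells, against 16 and 1 of 28 in T-like and 20 and 0 of 29 in B-like cells. Over the 12 of these genes measured in all 3 classes, NK-like cells had 4 higher, none lower and a median of 0.36. Without mixed-marker barcodes the NK-like values were 2 higher, 2 lower and 0.16. T-like cells had 6 higher, 1 lower and 0.50 over these 12 genes, and B-like cells 8 higher, none lower and 0.77. The difference between classes was not tested.

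The summed level of the list showed the same order. In NK-like cells it was 2517 CPM in live allo, 2485 in live iso, 2201 in apoptotic allo, 2682 in apoptotic iso and 2653 in saline. In T-like cells it was 6889, 3482, 3105, 3564 and 3874 CPM, and in B-like cells 7568, 3294, 3032, 3642 and 3847 CPM. T- and B-like cells of live allo thus stood well above every other library, and the NK-like cells of live allo lay between those of the other 4 libraries. Counted per cell after thinning to 1000 UMIs, at least 3 interferon UMIs were found in 43.8% of live allo NK-like cells (26.4 to 62.3), 48.5% of live iso (39.7 to 57.3), 39.2% of apoptotic allo, 42.1% of apoptotic iso and 40.0% of saline. The T-like shares were 88.6%, 60.2%, 53.2%, 55.5% and 61.1%, and the B-like shares 86.6%, 58.8%, 52.7%, 57.9% and 63.8%. Without thinning the NK-like shares were 100%, 93.2%, 89.9%, 78.9% and 83.6%, which follows the depth of the cells.

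Isg15, a ubiquitin-like modifier, had 54.0 CPM in live allo, 27.2 in live iso, 14.9 in apoptotic allo, 30.0 in apoptotic iso and 45.1 in saline NK-like cells, from 4 to 18 UMIs a library. The live allo over live iso log2 ratio of Isg15 was 0.78 in NK-like cells (fold 1.99, 0.833 to 4.56), 0.09 without mixed-marker barcodes, 2.65 in T-like and 2.23 in B-like cells. The NK-like interval for Isg15 lies below the T-like fold of 7.78 and the B-like fold of 5.93. Bst2, tetherin, which holds virus at the cell surface, went the other way in NK-like cells, with 34.3 CPM in live allo and 79.8 in live iso (log2 ratio -1.02), against ratios of 1.04 in T-like and 1.07 in B-like cells. The live allo level of Bst2 rests on few UMIs, since 3 UMIs are 14.7 CPM there. Irf7, a factor that amplifies type I interferon, was among the NK-like genes called higher, with 83.4 CPM in live allo, 39.1 in live iso, 55.9 in apoptotic allo, 17.98 in apoptotic iso and 32.6 in saline. Its ratio was 0.93 in NK-like cells (0.66 without mixed-marker barcodes), 1.39 in T-like and 1.59 in B-like cells. Zbp1, a sensor of Z-form nucleic acid, had ratios of 1.04, 1.18 and 2.15 in NK-, T- and B-like cells. Ifi27l2a had an NK-like ratio of 1.39, but 66.7% of its live allo UMIs came from 1 barcode, and the ratio without mixed-marker barcodes was 0.31.

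**Figure D3:**
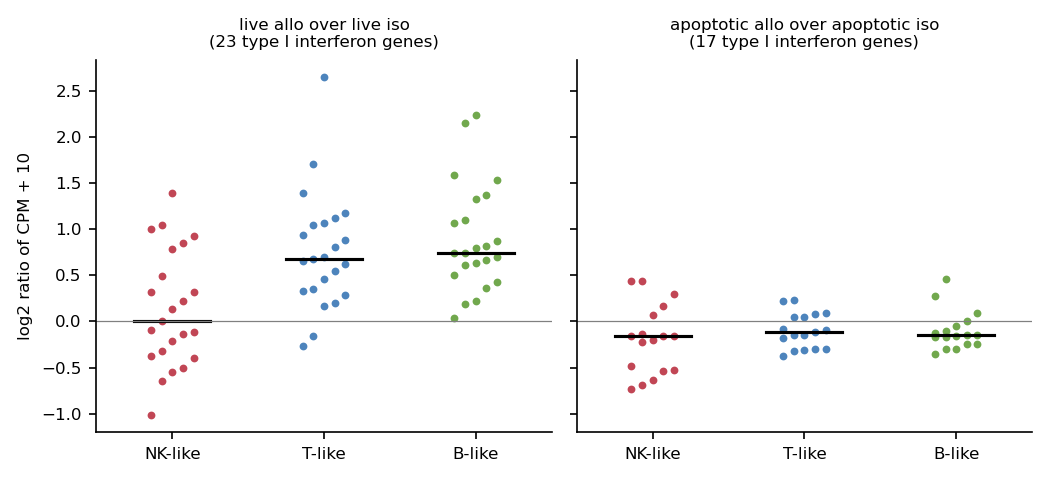
Log2 ratio of CPM + 10 for each type I interferon gene measured in all 3 classes, live allo over live iso (left, 23 genes) and apoptotic allo over apoptotic iso (right, 17 genes); points are genes and black bars medians. On the left the medians are 0.00 in NK-like, 0.68 in T-like and 0.75 in B-like cells, and on the right all 3 lie between -0.16 and -0.12.

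Type I interferon genes measured in all 3 classes were ranked by their live allo over live iso ratio in T-like cells. Promoters of Isg15 and Bst2 are printed because they ranked high there and held the interferon-stimulated response element. Their direction in NK-like cells played no part in the choice. Capitals mark the interferon-stimulated response element, searched as GAAANNGAAA on both strands; overlapping matches run together. The stretches (RefSeq, GRCm38.p6, 250 bases before to 50 after the gene start) lie at chr4:156200769-156201068, minus strand, with 3 matches, and at chr8:71537423-71537722, minus strand, with 2. The letters were found in 21 of 41 promoters of the type I interferon list (51.2%) and in 943 of 27025 promoters in all (3.49%). A match describes the letters only.
Isg15: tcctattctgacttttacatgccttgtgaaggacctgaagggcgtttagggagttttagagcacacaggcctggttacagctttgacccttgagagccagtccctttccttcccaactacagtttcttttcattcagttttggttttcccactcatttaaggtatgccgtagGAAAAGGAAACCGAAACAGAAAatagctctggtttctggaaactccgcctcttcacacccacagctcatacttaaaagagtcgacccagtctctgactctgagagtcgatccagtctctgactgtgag
Bst2: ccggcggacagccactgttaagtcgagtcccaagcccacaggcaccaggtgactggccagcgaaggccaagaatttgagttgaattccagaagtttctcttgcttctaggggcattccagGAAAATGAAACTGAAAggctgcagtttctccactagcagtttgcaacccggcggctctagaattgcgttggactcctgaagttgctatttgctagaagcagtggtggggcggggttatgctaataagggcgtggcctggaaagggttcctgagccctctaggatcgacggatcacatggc

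Some MHC class I genes were higher in the live infusions than in saline, and none was lower. Of 22 genes of MHC class I chains, peptide loading and the immunoproteasome, 21 were measured in live allo over saline, 7 were higher and none lower, with a median of 0.33, where 9.48% of all measured genes were higher and 18% lower. In live iso over saline 4 of 22 were higher and none lower, with a median of 0.26, where 13.2% of 6202 genes were higher and 9.09% lower; without mixed-marker barcodes 8 of 22 were higher, beside 8.82% higher and 9.65% lower over all genes. The comparisons share the saline library. Between live allo and live iso 3 of 22 were higher and none lower (median 0.09), where 9.61% of all measured genes were higher and 19.3% lower. B2m, the light chain of every class I molecule, had 1732 CPM in live allo, 1874 in live iso, 1356 in apoptotic allo, 1007 in apoptotic iso and 1229 in saline. H2-D1, a classical class I chain, had 1580, 1575, 1292, 1055 and 1073 CPM, and H2-Q4, a non-classical chain, 211, 209, 115, 147 and 120 CPM. All 3 were highest in the 2 live infusions. Psme2, a proteasome activator subunit, was high in live allo alone, at 358 CPM against 175 in live iso, 179 in apoptotic allo, 237 in apoptotic iso and 178 in saline (live allo over saline 2.01, 1.43 to 2.83). H2-K1, the other classical chain, lay between 2064 and 2482 CPM in all libraries. Reads of H2 genes that are nearly alike in sequence may be assigned between them.

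Inhibitory receptors of the Ly49 family, encoded by the Klra genes of chromosome 6 (129831154 to 131247362 in the GENCODE M21 annotation of GRCm38), differed by member. Klra7 (Ly49G) had 515 CPM in live allo, 274 in live iso, 339 in apoptotic allo, 306 in apoptotic iso and 231 in saline. It was highest in live allo and lowest in saline, with a live allo over saline fold of 2.23 (1.67 to 2.99) and a live allo over live iso fold of 1.88 (1.46 to 2.42), 1.57 without mixed-marker barcodes. After thinning, a Klra7 UMI was found in 34.4% of live allo NK-like cells, 19.7% of live iso, 25.3% of apoptotic allo, 21.1% of apoptotic iso and 15.7% of saline. Klra9 (Ly49I) had its highest level in apoptotic iso, with 334, 285, 413, 563 and 301 CPM, an apoptotic iso over saline fold of 1.87 (1.48 to 2.37). Klra1 (Ly49A) had 63.8, 107, 96.8, 156 and 130 CPM and was lowest in live allo, from 13 UMIs. Klra3 (Ly49C) had 265, 146, 242, 174 and 211 CPM. Of 11 Klra gene models, Klra17 and Klra2 had no UMI. The Klra genes are close paralogs, so the split of reads between them is uncertain.

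Among other inhibitory receptors, Klrd1 (CD94) had 878 CPM in live allo, 695 in live iso, 674 in apoptotic allo, 824 in apoptotic iso and 695 in saline, and its partner Klrc1 (NKG2A) 191, 131, 164, 192 and 193 CPM. Klrb1b (NKR-P1B), which binds Clr-b on healthy cells, was lowest in live allo, with 29.4 CPM against 78.1 in live iso, 108 in apoptotic allo, 108 in apoptotic iso and 135 in saline (live allo over saline 0.217, 0.0764 to 0.505). Without thinning, a Klrb1b UMI was seen in 18.8% of live allo NK-like cells and 22.9% of saline cells. These 2 shares cannot be compared directly, since the median UMIs per cell were 4767 in live allo and 2268.5 in saline. Over the 19 inhibitory receptor genes, 9 were measured between live allo and live iso, 3 were higher and 2 lower; between apoptotic allo and apoptotic iso 0 of 9 were higher and 1 lower. In the first of these comparisons 9.61% of all genes were higher and 19.3% lower, and in the second 8.8% of 4341 genes were higher and 6.82% lower.

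Activating receptors with many UMIs varied less across libraries than Cd226 and Slamf6, which had few. Klra4 (Ly49D), a receptor that recognises allogeneic MHC class I in mice, had 1231 CPM in live allo, 805 in live iso, 1028 in apoptotic allo, 1004 in apoptotic iso and 903 in saline. Klrk1 (NKG2D) had 912, 686, 786, 938 and 1028 CPM, and Klrc2 (NKG2C) 525, 438, 592, 650 and 554 CPM. Live iso was the lowest library for all 3, and without mixed-marker barcodes its Klra4 level was 1052 CPM, against 1327 in live allo. Of 19 measured activating receptor genes 5 were higher and 1 lower in live allo over live iso (median 0.41), beside 9.61% and 19.3% over all genes. Without mixed-marker barcodes 1 of 18 was higher and 2 lower (median 0.11), beside 11.5% and 18.6%. Cd226 (DNAM-1), an adhesion-type activating receptor, had 29.4 CPM in live allo, 69.7 in live iso, 37.2 in apoptotic allo, 77.9 in apoptotic iso and 95.3 in saline, low in both allo libraries, from 6 and 10 UMIs. Slamf6, a homophilic receptor of lymphocytes, had 78.5 CPM in live allo and 11.9 to 27.0 CPM elsewhere; 37.5% of its 16 live allo UMIs came from 1 barcode.

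**Figure D4:**
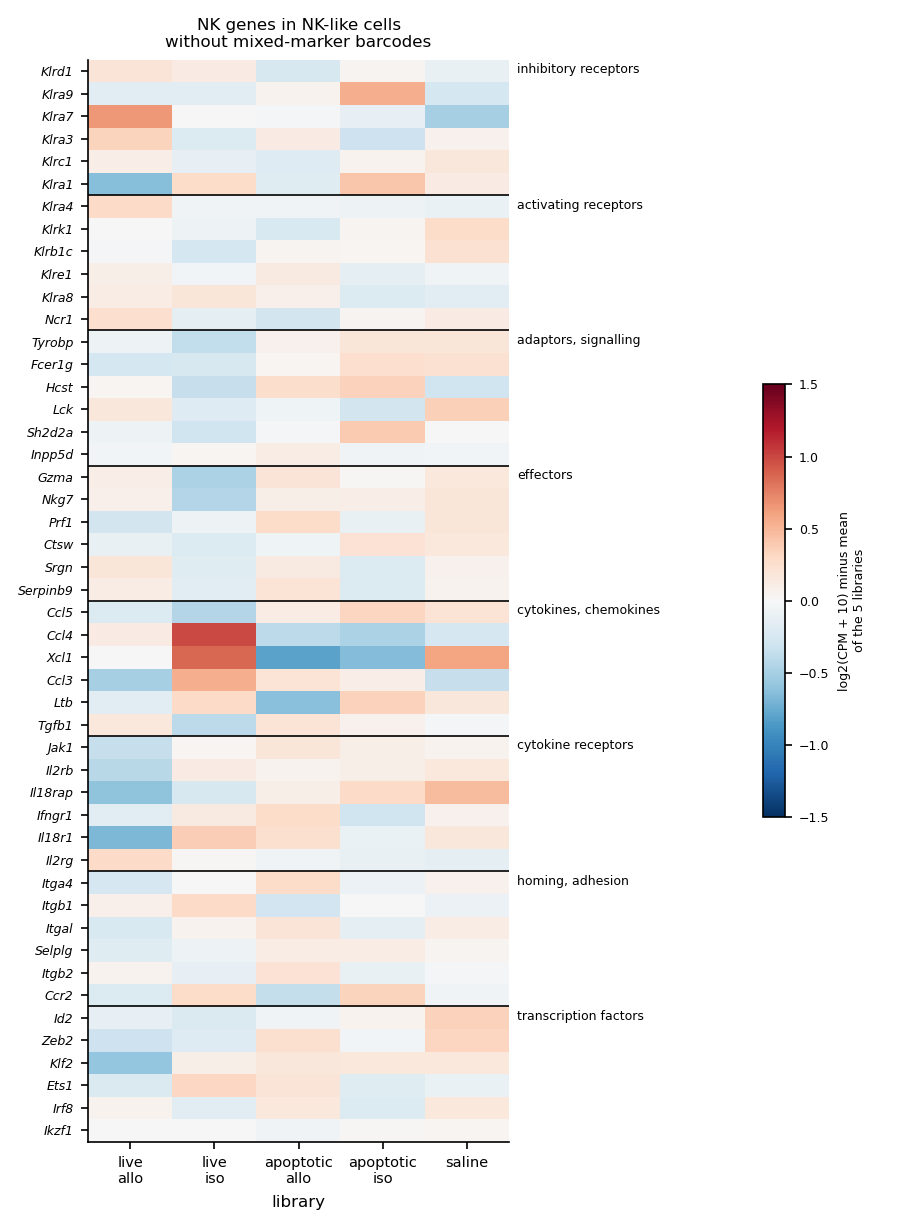
Levels of 6 of the genes with most UMIs in each of 8 NK gene lists, in NK-like cells without mixed-marker barcodes, as log2(CPM + 10) minus the mean of the 5 libraries; columns are libraries, rows genes grouped by role. Klra7 is highest in live allo, Ccl4 and Xcl1 in live iso, and Xcl1 is lowest in the 2 apoptotic libraries.

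Of 15 measured adaptor and signalling genes that couple these receptors to kinases, 3 were higher and 2 lower in live allo over live iso, and 1 was higher and 4 lower in live allo over saline. These counts lie near the shares over all genes in the first comparison (9.61% higher, 19.3% lower) and in the second (9.48% and 18%). Tyrobp (DAP12), which serves Ly49D and Ly49H, had 2782, 1906, 3188, 3494 and 3300 CPM in live allo, live iso, apoptotic allo, apoptotic iso and saline. Hcst (DAP10), the adaptor of NKG2D, was highest in the 2 apoptotic libraries, with 764 CPM in apoptotic allo and 800 in apoptotic iso, against 603 in live allo, 377 in live iso and 471 in saline. Its apoptotic iso over saline fold was 1.70 (1.40 to 2.06) and its apoptotic allo over saline fold 1.62 (1.32 to 1.99). Syk, a kinase downstream of DAP12, was lowest in live allo, with 49.1 CPM against 124 in live iso and 120 in saline (live allo over saline 0.408, 0.184 to 0.816), from 10 UMIs.

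Among cytotoxic effectors Gzmb, granzyme B, was the gene highest in live allo. Gzmb had 471 CPM in live allo, 209 in live iso, 183 in apoptotic allo, 186 in apoptotic iso and 253 in saline. Its live allo over live iso fold was 2.25 (1.71 to 2.97), or 1.84 (1.39 to 2.42) without mixed-marker barcodes, and its live allo over saline fold 1.86 (1.39 to 2.48). After thinning, a Gzmb UMI was found in 46.9% of live allo NK-like cells, against 26.5% in live iso, 19.0% in apoptotic allo, 19.7% in apoptotic iso and 23.6% in saline. Gzma did not follow: it had 10361 CPM in live allo, 5795 in live iso, 11703 in apoptotic allo, 10335 in apoptotic iso and 10575 in saline, low in live iso alone. Prf1 had 623, 598, 976, 746 and 845 CPM, and Nkg7, a granule protein needed for degranulation, 3086, 1775, 3315, 3317 and 3268 CPM.

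Of 15 measured effector genes 5 were higher in live allo over live iso and 1, Unc13d, lower, with a median of 0.36, beside 9.61% higher and 19.3% lower over all genes. Without mixed-marker barcodes 1 was higher and 1 lower, with a median of 0.09, beside 11.5% and 18.6%, while Gzma in live iso stood at 7468 CPM, still below the 10573 to 11907 CPM of the other 4 libraries. In apoptotic allo over apoptotic iso none of 16 effector genes was called either way (median 0.18), beside 8.8% higher and 6.82% lower over all genes. In live allo over saline 1 of 14 was higher, Gzmb, and none lower, beside 9.48% and 18%.

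Chemokines were unevenly spread. Ccl4 (MIP-1 beta), which draws monocytes and T cells, was highest in live iso, with 373 CPM in live allo, 561 in live iso, 272 in apoptotic allo, 252 in apoptotic iso and 278 in saline; the live iso over saline fold was 2.01 (1.62 to 2.52) and without mixed-marker barcodes 2.42. Xcl1 (lymphotactin), which attracts cross-presenting DCs, was low in both apoptotic libraries, with 142 CPM in apoptotic allo and 153 in apoptotic iso, against 240 in live allo, 358 in live iso and 356 in saline. The apoptotic allo over saline fold of Xcl1 was 0.398 (0.270 to 0.572) and the apoptotic iso over saline fold 0.429 (0.305 to 0.595). A single saline barcode held 45.1% of the saline Xcl1 UMIs, however, and after thinning an Xcl1 UMI was found in 8.86% of apoptotic allo, 11.8% of apoptotic iso and 10.0% of saline NK-like cells. Ccl5 had 11401, 7896, 14899, 17011 and 14858 CPM in live allo, live iso, apoptotic allo, apoptotic iso and saline, lower in both live infusions. Ifng, interferon gamma, had 63.8, 54.4, 85.7, 168 and 70.2 CPM, highest in apoptotic iso, where the fold over saline was 2.39 (1.49 to 3.91), or 1.76 (1.07 to 2.94) without mixed-marker barcodes.

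Interleukin 18 primes NK cells for interferon gamma release, and 1 of the 2 chains of its receptor was lower in both live infusions. Il18rap, the signalling chain, had 285 CPM in live allo and 302 in live iso, against 495 in apoptotic allo, 551 in apoptotic iso and 607 in saline. The live allo over saline fold of Il18rap was 0.469 (0.346 to 0.627) and the live iso over saline fold 0.498 (0.408 to 0.607), or 0.605 without mixed-marker barcodes. Il18r1, the binding chain, had 167 CPM in live allo, 289 in live iso, 350 in apoptotic allo, 258 in apoptotic iso and 296 in saline, low in live allo alone. Il2rb, the beta chain for interleukins 2 and 15, had 589, 715, 879, 866 and 860 CPM. Ifnar2, a chain of the type I interferon receptor, had 132, 61.2, 93.1, 92.9 and 113 CPM, a live allo over live iso fold of 2.17 (1.27 to 3.67). Over the list, 5 of 15 measured cytokine receptor genes were lower and none higher in live allo over saline, where 18% of all measured genes were lower and 9.48% higher.

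Homing receptors showed their largest difference for S1pr4, a receptor for sphingosine 1-phosphate, with 44.2 CPM in live allo, 56.1 in live iso, 123 in apoptotic allo, 89.9 in apoptotic iso and 148 in saline. It was low in both live infusions, with a live allo over saline fold of 0.298 (0.130 to 0.606) and a live iso over saline fold of 0.379 (0.240 to 0.590). S1pr5, the receptor that lets NK cells leave lymphoid tissue, had 123, 110, 197, 111 and 128 CPM. Cd44, a hyaluronan receptor, had 63.8, 173, 138, 111 and 140 CPM, low in live allo from 13 UMIs. With cells thinned before summing, its live allo over saline log2 ratio was 0.12, so the low level was not kept there. Itga4, Selplg and Itgal, which serve rolling and firm adhesion, were between 377 and 1341 CPM in every library and passed 1.5-fold in none of the 6 comparisons.

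Some transcription factors of the NK lineage were lower in live allo than in saline, and in live iso fewer were called lower once the mixed-marker barcodes were left out. In live allo over saline 6 of 18 measured factors were lower and 1 higher (median -0.42), where 18% of all measured genes were lower and 9.48% higher. In live iso over saline 7 of 21 were lower and none higher (median -0.44), where 9.09% of all measured genes were lower. Without mixed-marker barcodes 1 of 21 was lower in live iso over saline (median -0.27), where 9.65% of all measured genes were lower. The factors then summed to 4838 CPM in live allo, 5392 in live iso, 5919 in apoptotic allo, 5499 in apoptotic iso and 6513 in saline. Zeb2 had 540 CPM in live allo, 528 in live iso, 842 in apoptotic allo, 698 in apoptotic iso and 868 in saline. Tbx21 (T-bet), which drives maturation, had 108, 105, 190, 165 and 186 CPM, and Eomes, its relative, 343, 285, 376, 363 and 481 CPM. With cells thinned before summing, the live allo over saline log2 ratio of Tbx21 was 0.42, so its lower level was not kept. Zeb2 and Tbx21 also stood lower in cycling than in other NK-like barcodes (folds 0.367, 0.237 to 0.545, and 0.531, 0.227 to 1.06). The part of cycling barcodes in the live allo values of these factors was not tested. Klf2, which keeps lymphocytes quiescent and mobile, had 412 CPM in live allo and 569 to 741 CPM elsewhere. Ikzf3, Foxo1 and Prdm1 were the other factors called lower in live allo over saline. Tox, needed for NK development, was the factor called higher, with 88.3 CPM in live allo and 42.6 CPM in saline (2.07, 1.01 to 4.28), from 18 and 17 UMIs.

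Genes that grade NK cells by maturity gave no uniform shift. In live allo over live iso 5 of 13 measured genes of mature NK cells were higher and 2 lower, and 1 of 12 genes of immature NK cells was higher and 3 lower, where 9.61% of all measured genes were higher and 19.3% lower. Lgals1, galectin 1, had 2340 CPM in live allo, 984 in live iso, 1758 in apoptotic allo, 1993 in apoptotic iso and 1665 in saline. Emb, embigin, was highest in live iso, with 98.1, 209, 130, 168 and 118 CPM. Thy1, an Ig-family surface protein found on some NK cells, differed between the apoptotic infusions, with 26.1 CPM in apoptotic allo and 132 in apoptotic iso, against 20.1 in saline. Its apoptotic allo over apoptotic iso fold was 0.198 (0.0752 to 0.443), its apoptotic iso over saline fold 6.57 (3.06 to 16.2), and a Thy1 UMI was found in 3.80% of apoptotic allo, 17.1% of apoptotic iso and 3.57% of saline NK-like cells. Live allo and live iso had 63.8 and 64.6 CPM of Thy1. The T cell marker sum was highest in apoptotic iso as well, at 851 CPM against 674 in apoptotic allo and 662 in saline. A single CD3 UMI was held by 8 of 152 NK-like cells in apoptotic iso, 1 of 79 in apoptotic allo and 4 of 140 in saline. The part of T cells in the Thy1 level was not tested. Markers of type 1 innate lymphoid cells, which share Ncr1 and Klrb1c with NK cells, summed to 88.3, 255, 223, 168 and 288 CPM over 12 genes in live allo, live iso, apoptotic allo, apoptotic iso and saline, with Zfp683, a factor of tissue-resident cells, at 0 in all.

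Between the apoptotic infusions fewer genes were called past 1.5-fold than between the live infusions, 678 of 4341 against 1578 of 5452. Such counts depend on the UMIs and barcodes in the sums. With cells thinned before summing they were 458 of 1908 and 499 of 1343, and the difference was not tested. Of 4341 measured genes 382 were higher in apoptotic allo over apoptotic iso and 296 lower, with a median of 0.02; without mixed-marker barcodes the shares were 8.6% and 6.8%. The 10 named genes of highest ratio were Pcmtd1, Safb, Ube2h, Icam1, Ubn1, Eif3j1, Vps37b, Tmco1, AY036118 and Rgs1, and the 10 of lowest ratio Thy1, Tubb5, Stmn1, Prdx1, Dbi, Commd7, Hspa4, Ndufaf8, Mat2a and Ifng. Icam1, an adhesion ligand, had 145 CPM in apoptotic allo and 62.9 in apoptotic iso (2.31, 1.33 to 4.13). Rgs1, a brake on chemokine receptor signalling, had 205 CPM in apoptotic allo and 102 in apoptotic iso (2.01, 1.29 to 3.18). Prdx1, a peroxidase, had 130 CPM in apoptotic allo and 288 in apoptotic iso (0.453, 0.299 to 0.674). The ratio of Stmn1 turned positive when mixed-marker and cycling barcodes were left out (0.25, against -1.09 with all barcodes), and that of Tubb5 was -0.24 then. Cell cycle genes were higher in 2 and lower in 5 of 17 measured, and of 21 type I interferon genes 1 was higher and 5 lower. Over all measured genes of this comparison 8.8% were higher and 6.82% lower.

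The named genes of live allo over live iso were led by Gm11808, a predicted gene, with 476 CPM in live allo and 78.1 in live iso; live iso stood out there, since apoptotic allo had 339, apoptotic iso 267 and saline 228 CPM. After it came Pclaf, Stmn1, Hmgn2, H2afx, Trappc1, Tpx2, Pycard, Mki67 and Bcl2a1b. Pycard, the ASC adaptor of inflammasomes, had 500 CPM in live allo and 185 in live iso, with ratios of 1.39 and, without mixed-marker barcodes, 1.28. Bcl2a1b, a survival gene, rested on a mixed-marker barcode: its ratio of 1.37 was -0.08 without these. The lowest ratios belonged to Creg1, Gm42418, Lars2, Cdk6, Tug1, Btaf1, Zfp646, Tmem123, Hsph1 and Kdm5b, and all of these but Gm42418 and Lars2 had 3 to 6 UMIs in live allo. Gm42418 and Lars2 had ratios of -2.13 and -2.10, and without mixed-marker barcodes -2.38 and -2.34.

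Against saline, which the 4 comparisons share, live allo NK-like cells were led by the histone genes Hist1h2ab, Hist1h3c, Hist1h2ae and Hist1h1b and by Pclaf, all of S phase. Hist1h2ab rested on 54 UMIs in live allo and 1 UMI in saline, a ratio of 106 (18.2 to 4249), and reads of the near-identical Hist1 genes may be split between them. Hist1h1b, a linker histone, had 652 CPM in live allo and 90.3 in saline, and its ratio of 2.72 was -0.31 without mixed-marker and cycling barcodes. Lowest in live allo over saline were Tug1, Scd2, Klrb1b, Cnot4 and S1pr4. In live iso over saline Hist1h2ap, Snhg8 and Odc1 were highest and Cers4, Gm11808 and Ifitm10 lowest. In apoptotic allo over saline Rasa2, Atp5md and Rnf166 were highest and Stmn1, Mrps16 and Xcl1 lowest, where 7.06% of 4787 genes were higher and 10.3% lower. In apoptotic iso over saline Thy1, Rnf166 and Ifng were highest and Gm10076, Cmip and Xcl1 lowest, where 5.32% of 5017 genes were higher and 10.2% lower. Rnf166, a ubiquitin ligase, had 164 CPM in apoptotic allo and 168 in apoptotic iso, against 67.7 in saline.

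Glycolysis genes were higher in live allo over live iso in 4 and lower in 2 of 12 measured in NK-like cells (median 0.20), against 9 higher and none lower of 14 in T-like cells (median 0.89); without mixed-marker barcodes 5 of 11 were higher in NK-like cells and none lower. Over all measured genes of this comparison 9.61% were higher and 19.3% lower in NK-like cells, 11.5% and 18.6% without mixed-marker barcodes, and 7.7% and 10.4% in T-like cells. Eno1, enolase, had 270 CPM in live allo, 117 in live iso, 197 in apoptotic allo, 102 in apoptotic iso and 183 in saline. Gapdh had 721, 452, 391, 560 and 587 CPM. Genes induced by tissue dissociation and heat stress were highest in live iso: the 25 genes summed to 6672 CPM in live allo, 9873 in live iso, 6373 in apoptotic allo, 5825 in apoptotic iso and 6332 in saline. In live allo over live iso 11 of 22 measured stress genes were lower and none higher (median -0.59), against those 19.3% and 9.61%. Without mixed-marker barcodes the live iso sum was 8647 CPM. B-like cells of live iso were also the highest of their class, with 7859 CPM in live allo, 9650 in live iso, 7514 in apoptotic allo, 6846 in apoptotic iso and 7161 in saline, while among T-like cells live allo had 9786 CPM and live iso 8944 CPM. Handling of a sample cannot be told apart from its infusion. Junb, an immediate early gene, had 216 CPM in live allo, 503 in live iso, 276 in apoptotic allo, 306 in apoptotic iso and 213 in saline NK-like cells, and the mitochondrial chaperone Hspd1 467 CPM in live iso, of which 53.1% of UMIs came from 1 barcode.

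**Figure D5:**
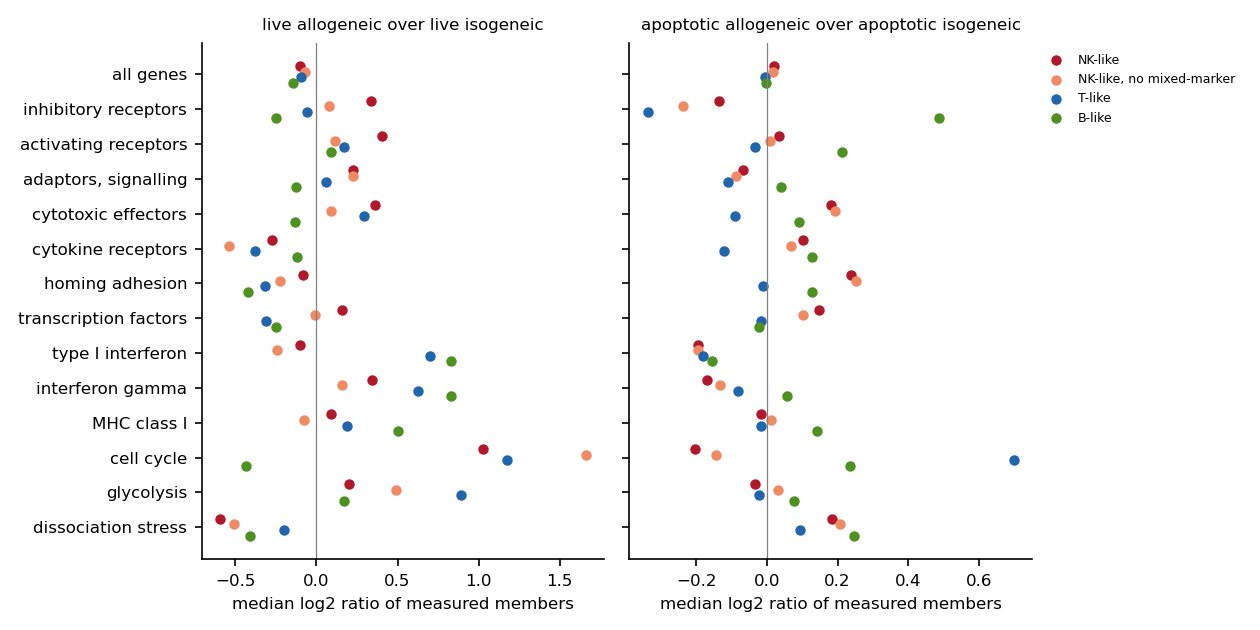
Median log2 ratio of CPM + 10 over the measured members of 13 gene lists and over all genes, live allo over live iso (left) and apoptotic allo over apoptotic iso (right), in NK-like cells, NK-like cells without mixed-marker barcodes, T-like and B-like cells; lists with under 5 measured members in a class are not drawn, and the horizontal scales differ. On the left the type I interferon median is -0.10 in NK-like, 0.70 in T-like and 0.83 in B-like cells, and the cell cycle median 1.03, 1.17 and -0.43.

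Markers of other cell types moved with some of these results. T cell markers summed to 702, 561, 674, 851 and 662 CPM over 14 genes in live allo, live iso, apoptotic allo, apoptotic iso and saline, with Cd5 at 0 in all. B cell and MHC class II markers summed to 2036, 1913, 495, 1429 and 3092 CPM over 13 genes, and without mixed-marker barcodes to 227, 833, 333, 552 and 411 CPM. Erythroid markers summed to 211, 844, 130, 192 and 145 CPM over 8 genes, and without mixed-marker barcodes to 227, 251, 129, 199 and 163 CPM. The B cell marker sum was highest in saline over all barcodes and in live iso without the mixed-marker barcodes, and the part of these markers in the live iso values was not tested. DC markers summed to 388, 657, 525, 545 and 1008 CPM over 12 genes, with Siglech at 0 by the rule. Monocyte and neutrophil markers summed to 348, 503, 272, 860 and 351 CPM over 12 genes, with Ngp, Camp, Ly6g and Retnlg at 0 in all. Macrophage markers ranged from 0 in live allo to 59.5 CPM in live iso over 11 genes, and markers of basophils and mast cells reached at most 4.91 CPM.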

How the data were processed

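Spleen cells of 5 groups, 1 droplet library each, were analysed from the deposited UMI counts, not normalised; per the submitters' processing notes, Cell Ranger 4.0 and the mm10 build were used. Libraries held 12742889 to 32641733 UMIs over 32285 genes. Cells were filtered and classed by the UMI rules given above, counts were summed per library and class, and sums were compared as log2(CPM + 10); the code was tested on simulated data. No p-values were computed. Doublets were sought with Scrublet, which marked 0 to 1.83% of base cells and 1 NK-like cell, so its calls were of little use and no cell was removed. The genes named by rank were those with the highest and lowest ratios (10 each way between infusions, 5 or 3 against saline) among genes with at least 50 UMIs, a UMI in at least 10% of the NK-like cells of 1 library and an NK-like CPM of at least 0.2 of that in the other base cells, leaving out ribosomal protein, mitochondrial, sex-linked, haemoglobin and antigen receptor genes. Members of the NK lists were named where they had most UMIs or passed 1.5-fold. The cells and gene lists were chosen with earlier results of these data known. Alternatives changed 16 settings, of which 3 were chosen after seeing the data. Python 3.11.15, numpy 2.4.6, scipy 1.17.1, pandas 2.3.3, scanpy 1.11.5 and matplotlib 3.10.9 were used. Intervals cover counting error only, since libraries were not replicated. Mx1, Mx2 and Cd244 were not analysed here, and single values of some listed genes are not reported here.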

Additional observations from a re-analysis of the deposited data

How the results depend on the processing

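No paired analysis was possible because each group had 1 library. Of the alternative values, for shares, list medians and counts of called genes, 252 stayed within the counting interval, the spread used or 1.5 times the count, and 58 did not; the cause was not tested, except that a lower or higher UMI minimum admits more or fewer genes. With a minimum of 1 UMI the genes called numbered 3719 for live allo over live iso, 2960 for apoptotic allo over apoptotic iso, 4049 for live allo, 2748 for live iso, 2990 for apoptotic allo and 2737 for apoptotic iso over saline, against 1578, 678, 1233, 1385, 833 and 781, and the cell cycle median for the apoptotic pair was -0.38. With 50 UMIs they numbered 585, 166, 432, 591, 223 and 210, the cell cycle, effector and interferon medians of live allo over live iso were 0.94, 0.43 and -0.32, and the apoptotic effector median was 0.12. With cells thinned before summing the counts were 499 for live allo over live iso and 511, 613 and 471 for live allo, live iso and apoptotic allo over saline, the cell cycle medians 0.80 (live) and 0.10 (apoptotic), and the apoptotic effector median 0.10. Reversed there were Cd44 (0.12) and Tbx21 (0.42) in live allo over saline, S1pr5 (-0.17) and Stmn1 (0.10) in apoptotic allo over apoptotic iso, Serpinb6b (-0.041) in live allo over live iso and Zap70 (-0.074) in apoptotic allo over saline. With the rule on thinned cells the live medians were 1.78 (cell cycle), 0.16 (effectors) and -0.26 (interferon), the apoptotic cell cycle median 0.019 and the saline share 3.82%; Il7r in live allo over saline was 0.56, and Lat and Stmn1 in the apoptotic pair 0.068 and 0.045. Without mixed-marker barcodes the live cell cycle and effector medians were 1.66 and 0.092 and Bcl2a1b was -0.084; without cycling barcodes as well they were 0.40 and 0.030, the apoptotic cell cycle median 0.29, Serpinb6b -0.16, and Stmn1 0.25 in the apoptotic pair and 0.27 in apoptotic allo over saline. With at least 3 rule UMIs Bcl2a1b was -0.59. With no CD3 or B cell UMI allowed the apoptotic effector median was 0.12 and the live iso share 2.96%. Means over cells gave live medians of 1.32 (cell cycle) and 0.15 (effectors) and an apoptotic cell cycle median of 0.014. Median-of-ratios scaling gave a live effector median of 0.45, and a pseudocount of 1 CPM a live cell cycle median of 1.27. A 5% mitochondrial limit gave live medians of 1.21 (cell cycle) and 0.26 (effectors) and shares of 3.90% in live allo, 4.44% in live iso, 4.94% in apoptotic allo, 3.68% in apoptotic iso and 7.004% in saline. Without thinning, cells with at least 2 cell cycle UMIs were 100%, 100%, 98.7%, 96.7% and 98.6% and with at least 3 interferon UMIs 100%, 93.2%, 89.9%, 78.9% and 83.6%. Median-of-ratios scaling moved the share of higher calls to 46.0% against 34.6% in live allo over saline and to 49.1% against 34.2% in apoptotic iso over saline. Leaving mitochondrial, ribosomal and 3 other genes out of the total moved it to 70.1% against 59.3% in live iso over saline. Depth limits most the 32 live allo cells, where 3 UMIs are 14.7 CPM.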
